A study of Mus musculus with 21 samples.

Results

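B cells made up 436 of the 87822 cells in the tables, or 0.496%, and were the least numerous of the 23 cell types named after the integration of all samples with Harmony. A cell was counted as a B cell when its Harmony label said so, and no other filter was applied. The cells came from tibialis anterior muscles of female C57Bl/6J mice aged 20 months, with 1 mouse per sample. Muscles were taken uninjured from 4 mice, or at 1 (4 mice), 2 (3 mice), 3.5 (4 mice), 5 (3 mice) or 7 (3 mice) days post-injury (dpi). The injury was an injection of notexin, a snake-venom toxin that kills muscle fibers while leaving the stem cells able to rebuild them. All 21 mice were of the same strain, age and sex and carried no engineered allele named in the labels. Whole muscles were dissociated without sorting and captured by 10x Chromium v3, which tags transcripts with unique molecular identifiers (UMIs). A cell type is thus measured as a share of the captured cells and not as a number of cells in the muscle.

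B cells are the lymphocytes that recognise antigen through a surface immunoglobulin and, once activated, can mature into antibody-secreting plasma cells. Their usual markers include Cd79a, which encodes a signalling chain of the B cell receptor, and Ms4a1, which encodes the surface protein CD20. Healthy skeletal muscle holds few of them beside its resident macrophages, and in lymphoid organs they are abundant. The tables used here list no single genes, so Cd79a and Ms4a1 could not be checked in these cells. The label was checked instead against the label sets that came from BBKNN and Scanorama, which are 2 other ways of merging the samples, and against a label given before the cells were filtered.

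BBKNN also named 358 of the 436 cells B cells (82.1%, exact 95% interval 78.2% to 85.6%), and Scanorama 344 (78.9%, 74.8% to 82.6%). The label from before filtering was B cell in 397 (91.1%, 88.0% to 93.6%). All 3 integration methods gave the label to 344 cells, Harmony and 1 other method to 14, and Harmony alone to 78. Few B cells were named by another method and missed by Harmony, with 5 such cells for BBKNN and 2 for Scanorama.

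The cells that only Harmony called B were concentrated in the early and middle time points. The label was shared by all 3 methods in 47 of 52 B cells of uninjured muscle (90.4%) and 37 of 44 at 1 dpi (84.1%). The share was lower in the next groups, 69 of 100 cells (69%) for 2 dpi and 49 of 86 (57.0%) for 3.5 dpi. It was 78 of 86 (90.7%) and 64 of 68 (94.1%) in the 5 and 7 dpi groups. The 2 dpi and 3.5 dpi samples held 28 and 33 of the 78 Harmony-only cells. BBKNN placed 32 of the 78 among dendritic cells, which present antigen to lymphocytes, and 25 among Cx3cr1_hi M2 macrophages. Scanorama spread them over dendritic cells (24), infiltrating monocytes (17), patrolling monocytes (12) and smaller groups. These labels were made from the same cells, and no test was applied to them.

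The disagreement sat in particular mice. In 2 dpi mouse A 19 of 43 B cells carried the label in all 3 methods, in 3.5 dpi mouse A 3 of 8, in 3.5 dpi mouse B 2 of 5 and in 3.5 dpi mouse C 5 of 31. In the other 17 mice the share was at least 62.5%, and in 3.5 dpi mouse D, of the same time point, it was 39 of 42 (92.9%). Results that rest on the 4 mice under 60% are given with and without them below.

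**Figure D1:**
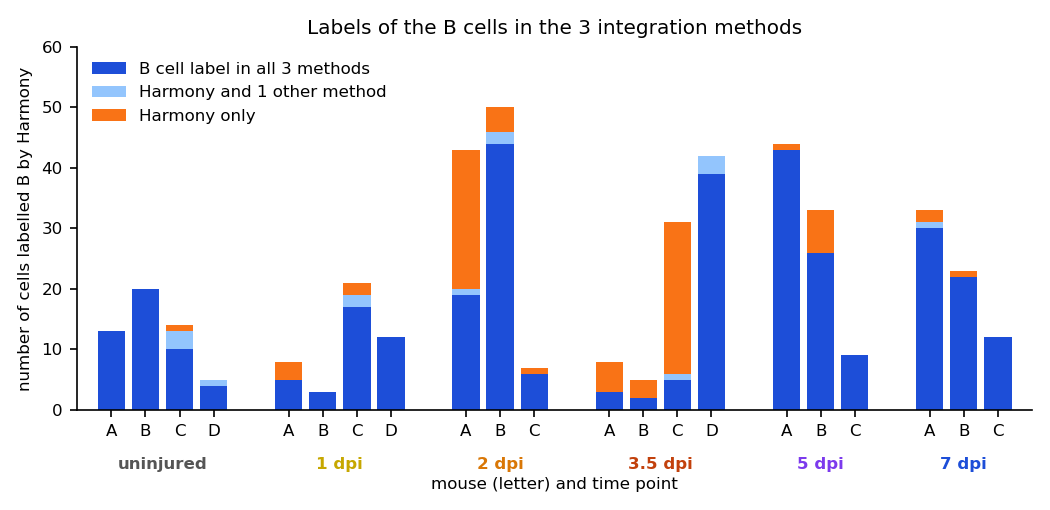
Number of cells labelled B by Harmony in each of the 21 mice (bars), split by whether both, 1 or neither of BBKNN and Scanorama gave the same label. Harmony-only cells make up most of the bar in 2 dpi mouse A (23 of 43) and 3.5 dpi mouse C (25 of 31) and are few or absent in uninjured, 5 dpi A and C, and 7 dpi mice.

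Within a mouse, the contested cells differed from the shared ones in their transcriptomes. This could be examined in the 3 mice with at least 5 cells of both kinds. In 2 dpi mouse A the median was 2293 UMIs in Harmony-only cells against 1185 in cells shared by all methods, in 3.5 dpi mouse C 3396 against 1807, and in 5 dpi mouse B 6861 against 1886. The share of UMIs from the ribosomal class was 10.0% against 17.9%, 14.2% against 19.7% and 15.6% against 19.5% in the same order. The mitochondrial share was 10.5% against 12.8%, 8.49% against 10.4% and 5.71% against 11.4%. In all 3 mice the Harmony-only cells thus had more UMIs and lower ribosomal and mitochondrial shares, as a description of 1 to 3 mice. The doublet score of DoubletFinder, the share of a cell's neighbours that are artificial doublets, was equal at 0.0719 in 2 dpi mouse A, lower in Harmony-only cells in 3.5 dpi mouse C (0.123 against 0.166) and higher in 5 dpi mouse B (0.219 against 0.0608). All 436 B cells were called singlets in the tables, but the authors had already removed the cells called doublets. The call therefore says nothing about the contested cells.

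The tables held between 5.60e+06 and 7.07e+07 UMIs per sample, B cells holding 0.221% of all UMIs. No cell barcode was shared between B cells of different samples, and 8 B cells had a barcode that also occurred in another sample. In the uninjured samples 48.6% ± 5.60 (SD, n = 4) of reads were in cells, against 82.8% ± 12.7 (n = 17) in the injured ones, and 39.9% ± 10.4 of the barcodes found by Cell Ranger remained after the authors' filters, against 72.7% ± 7.91. The median mitochondrial share over all cells was 14.8% ± 4.49 in uninjured and 5.24% ± 1.23 in injured samples. These differences coincide with the contrast of injured and uninjured muscle, and their part in the results below was not tested.

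The B cell share of all cells did not differ detectably between time points. In uninjured muscle it was 0.573% in mouse A (13 of 2267 cells), 0.586% in B (20 of 3413), 0.278% in C (14 of 5029) and 0.513% in D (5 of 974). At 1 dpi it was 0.275% in mouse A (8 cells), 0.251% in B (3 cells), 0.464% in C (21 cells) and 0.313% in D (12 cells). All 4 mice at 1 dpi lay below the 3 highest uninjured mice, and 2 of them lay below the lowest.

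At 2 dpi the share was 0.407% in mouse A (43 cells), 1.09% in B (50 cells) and 0.220% in C (7 cells). At 3.5 dpi it was 0.256% in mouse A (8 cells), 0.190% in B (5 cells), 0.460% in C (31 cells) and 1.08% in D (42 cells). The 2 highest shares of the series were thus 2 dpi mouse B and 3.5 dpi mouse D, each beside mice of the same time point with the lowest shares of the series. Their exact 95% intervals, 0.808% to 1.43% and 0.778% to 1.45%, did not reach those of the other mice at their time points, so that the mice of these groups differed by more than counting error.

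At 5 dpi the share was 0.827% in mouse A (44 cells), 0.390% in B (33 cells) and 0.339% in C (9 cells). At 7 dpi it was 0.553% in mouse A (33 cells), 0.542% in B (23 cells) and 0.530% in C (12 cells). The 7 dpi mice were the most alike of any group, with an SD of 0.0115 percentage points. The SD was 0.143 points in uninjured mice and 0.0956, 0.457, 0.405 and 0.268 points in the groups from 1 to 5 dpi.

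**Figure D2:**
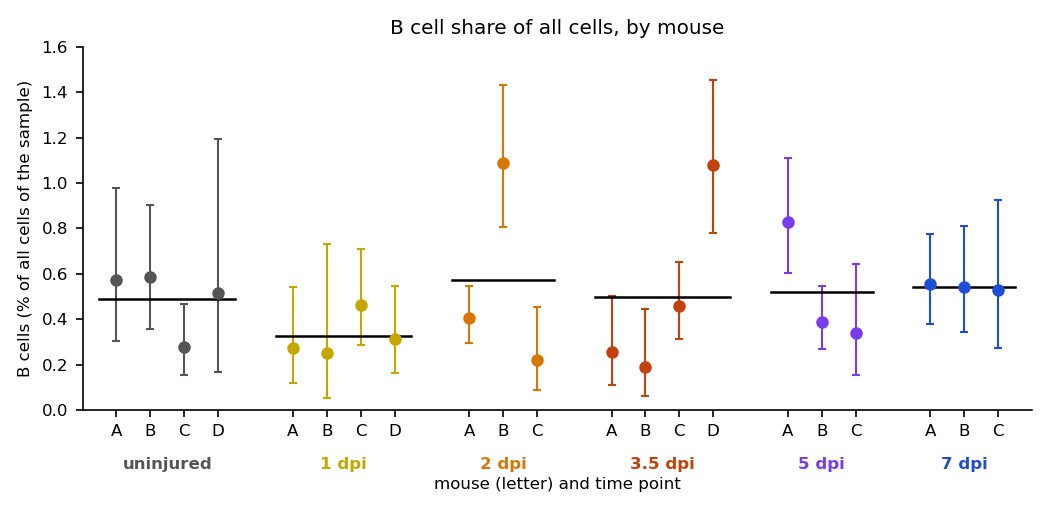
B cells as a percent of all cells in each mouse (points, with exact Clopper-Pearson 95% intervals of counting error only) and the mean of each time point (black lines). The means run from 0.325% at 1 dpi to 0.572% at 2 dpi, and single mice at 2 and 3.5 dpi reach 1.09% and 1.08%.

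Tested over the 6 time points with mice permuted, the B cell share gave F = 0.399 and an adjusted p of 0.849 (permutation test, Benjamini-Hochberg over 23 types), the largest of all types. By the same test 18 of the 23 types (78.3%) passed the threshold of 0.05, so B cells were among the 5 that did not. Against the uninjured mean of 0.488%, the 1 dpi mean differed by -0.162 percentage points (exact 95% interval -0.335 to 0.185) and the 2 dpi mean by 0.0838 (-0.366 to 0.809). The 3.5, 5 and 7 dpi means differed by 0.00805 (-0.396 to 0.80), 0.0307 (-0.247 to 0.549) and 0.0540 points (-0.175 to 0.543). The adjusted p was 0.429 for 1 dpi and 1 for the other time points (two-sided exact permutation tests, adjusted over 5).

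All injured mice together had a mean of 0.481% against 0.488%, a difference of -0.00660 percentage points with an exact 95% interval of -0.302 to 0.286 (p = 0.970, exact permutation test, 17 against 4 mice). Changes of up to about that interval, which is more than 50% of the uninjured share in either direction, could not be told from none with these mice. Without the 4 mice of contested labels the difference was 0.0405 points (p = 0.824, exact permutation test), and with only the cells that all 3 methods call B it was -0.0488 (p = 0.766, exact permutation test).

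The share depended on what it was a share of. With the myeloid cells left out of the denominator, the B cell share of injured muscle was 0.999 percentage points above that of uninjured muscle. This missed the threshold (p = 0.104, exact permutation test), but the difference exceeds the uninjured share of all cells, 0.488%. By time point the differences were 0.634, 2.136, 1.505, 0.512 and 0.164 points from 1 to 7 dpi, all upward. None passed (adjusted p = 0.229 at 5 dpi and 0.143 at the others, exact permutation tests). A flat share was thus not shown for this denominator.

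Among lymphocytes, here the sum of B, T and NK cells, the B cell share fell after injury. T cells recognise antigen presented by other cells and include helper and cytotoxic types, and NK cells kill stressed or infected cells without antigen priming. B cells were 54.2% of the lymphocytes in uninjured mouse A (13 B cells), 55.6% in B (20), 43.8% in C (14) and 38.5% in D (5), with a mean of 48.0% ± 8.25 (SD, n = 4). These rest on only 105 lymphocytes in all 4 mice, of which 45 were T cells and 8 NK cells.

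At 1 dpi B cells were 13.3%, 30%, 16.9% and 22.2% of the lymphocytes in mice A to D. At 2 dpi they were 12.8%, 36.2% and 18.4% in mice A to C. All 7 of these mice lay below the lowest uninjured mouse, 2 dpi mouse B narrowly so.

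At 3.5 dpi the values were 7.08%, 5.32% and 6.68% in mice A to C and 43.3% in mouse D, which lay within the uninjured range. At 5 dpi they were 4.49%, 2.20% and 3.59%, and at 7 dpi 3.0%, 6.89% and 6.00%. The 6 mice at 5 and 7 dpi all had under 7%, and 3.5 dpi mice A to C lay among or just above them.

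The share among lymphocytes differed over the 6 time points (F = 9.16, p = 0.0008, permutation test, 21 mice). The means of the 1, 2, 5 and 7 dpi groups differed from uninjured by -27.4, -25.5, -44.6 and -42.7 percentage points (adjusted p = 0.0357 each, two-sided exact permutation tests), at or near the smallest p these group sizes allow, 0.0286 before adjustment. At 3.5 dpi it was -32.4 points, which missed the threshold (adjusted p = 0.0571, exact permutation test). Without 3.5 dpi mouse D the difference there was -41.6 points and passed (adjusted p = 0.0286, exact permutation test), while without the 4 mice of contested labels, which leaves mouse D alone at 3.5 dpi, it was -4.68 points (adjusted p = 0.80, exact permutation test, in which 1 mouse cannot pass). The 2 dpi call was lost without the contested mice (adjusted p = 0.0833, exact permutation test, from 0.0357 to 0.200 over the alternatives), where 4 against 2 mice cannot go below 0.0667. Leaving out any 1 uninjured mouse ended all 4 calls, and any 1 mouse of the 2, 5 or 7 dpi group the call of its own group. Neither 3 against 3 mice (0.1) nor 4 against 2 can reach the threshold, and the adjustment carried this to 1 dpi. The differences stayed between -47.7 and -20.7 points.

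The T and NK cells moved while the B cells did not detectably do so. The T cell share of all cells averaged 0.454% in uninjured muscle and 1.2%, 1.2%, 2.80%, 10.2% and 9.41% from 1 to 7 dpi, and the rise passed the threshold at 3.5, 5 and 7 dpi (adjusted p = 0.0476 each, exact permutation tests). The NK cell share averaged 0.0796% and then 0.232%, 0.692%, 0.844%, 4.49% and 1.76%, and passed from 2 dpi on (adjusted p = 0.0357 each, exact permutation tests). At 5 dpi the 3 mice together held 86 B cells, 1873 T cells and 768 NK cells. The lower B cell percentage among lymphocytes was therefore measured alongside a larger denominator, and nothing here gives a fall in the number of B cells.

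**Figure D3:**
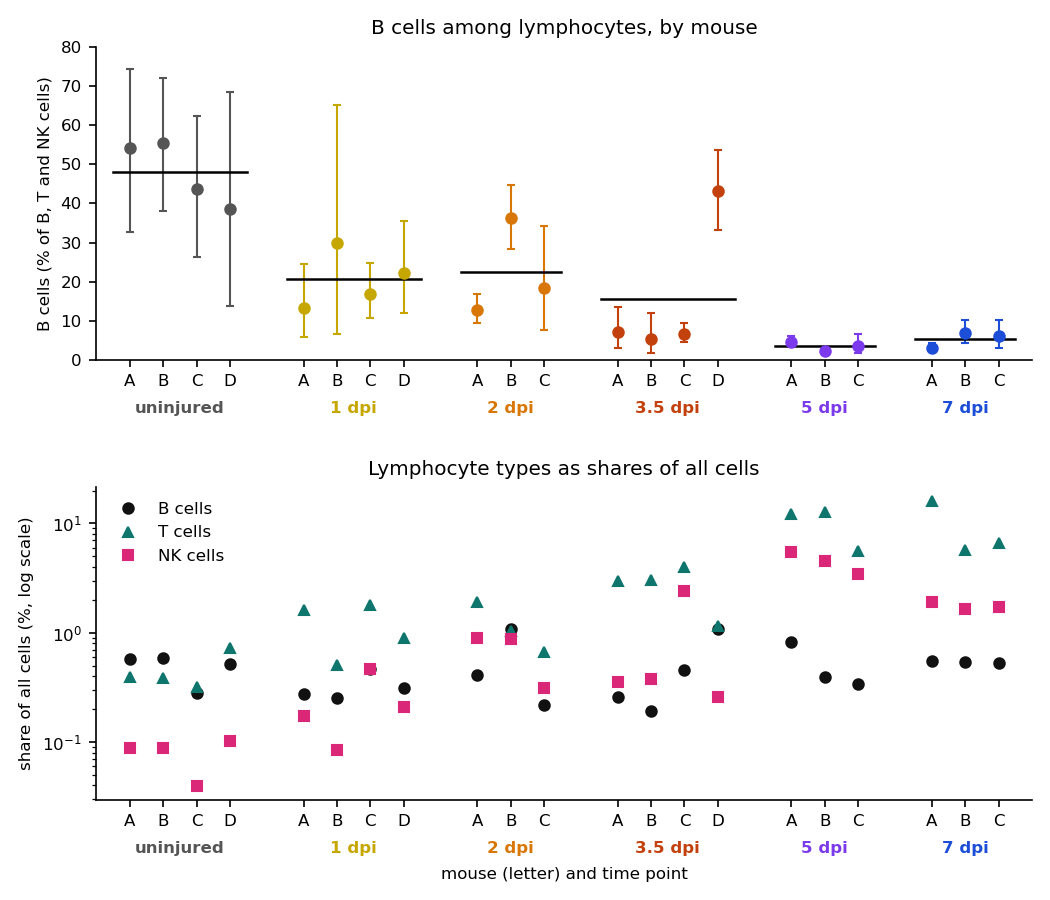
Upper panel: B cells as a percent of B, T and NK cells in each mouse (points, exact 95% intervals) with time point means (lines), from 48.0% in uninjured to 3.43% at 5 dpi, and 3.5 dpi mouse D at 43.3%. Lower panel: B, T and NK cells as percents of all cells in each mouse on a log axis, where B cells stay between 0.190% and 1.09% while T cells reach 16.0% in 7 dpi mouse A.

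The mouse with the second-highest B cell share, 3.5 dpi mouse D, had a T cell share of 1.16% and an NK cell share of 0.257%, both the lowest of its time point. Its 42 B cells stood beside 45 T cells and 10 NK cells. In 3.5 dpi mouse C, by contrast, 31 B cells stood beside 272 T cells and 161 NK cells. The order of the mice by B cells was thus not their order by T cells at this time point.

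Across the 21 mice the B cell share showed no detectable relation to the T cell share (Pearson's r = 0.118, Spearman's rho = 0.122, adjusted permutation p = 0.626 for both) or to the NK cell share (r = 0.185, rho = 0.225, adjusted permutation p = 0.626 for both, 4 values in the family). With time point means removed, r was 0.0205 for T cells (rho = 0.0610, adjusted permutation p = 0.946 for both) and 0.231 for NK cells (rho = 0.451, adjusted permutation p = 0.946 and 0.451). Leaving out the 2 mice farthest from the median T cell share (5 dpi B and 7 dpi A) gave r = 0.188, and the 2 farthest in NK cell share (5 dpi A and B) r = 0.0501. The shares of a mouse have a common denominator, which by itself ties them together.

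B cells were small in transcript content. Their median was 2882 UMIs and 1195.5 genes per cell, each 20th highest of the 23 types. By contrast the median share of UMIs from the mitochondrial class, 11.7%, and from long intergenic noncoding RNAs, 2.40%, were each the second highest of the types, and the share from the ribosomal class, 18.9%, the 4th highest. These ranks describe cells that were labelled by their genes and carry no test.

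The differences from T cells of the same mouse were mostly in the same direction for UMIs, genes and the mitochondrial and long intergenic classes. In the 20 mice with at least 5 of both, B cells had fewer UMIs in 18 (mean difference of medians -0.31 ± 0.24 on the log2 scale, SD) and fewer genes in 19 (-0.26 ± 0.23). Their mitochondrial share was higher in 17 of 20 mice (2.91 ± 3.03 percentage points), their share of long intergenic noncoding RNA in 19 (0.430 ± 0.682 points) and their antisense share in 17 (0.0157 ± 0.0186 points). The protein-coding share was lower in 17 mice, although the mean difference was 0.546 ± 7.57 points, and the heat shock share was lower in 15 (-0.0889 ± 0.498 points). The ribosomal share was higher in 9 and lower in 11, with a mean difference of 0.602 ± 5.06 points.

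B cells were about as often as other cells under a low limit on genes, but fewer of them passed a stricter filter. Of the 436, 31 (7.11%) had under 750 genes, close to the 6.42% of all cells. The 2 dpi group held 17 of the 31, and 12 of these came from mouse A, a mouse of contested labels. A stricter filter, which asked for 1000 genes, 2000 UMIs and no more than 15% of UMIs from mitochondrial genes, kept 222 B cells (50.9%), against 70.3% of T cells and 75.5% of all cells. The genes limit alone kept 296, the UMI limit 315 and the mitochondrial limit 330.

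The transcriptome of the B cells could be followed only through the share of UMIs in the gene classes that the tables name. The median over the B cells of a mouse was taken as its value in the 20 mice with at least 5 B cells, which leaves out 1 dpi mouse B with 3. Over the 6 time points, 0 of 9 readouts (0%) passed the adjusted threshold in the permutation test, and 2 had an unadjusted p under 0.05, the ribosomal class (p = 0.0177) and the class labelled tf, whose gene list the sources do not give (p = 0.0140), with an adjusted permutation p of 0.0798 for both. Injured against uninjured, 3 of 9 (33.3%) passed, the ribosomal, the mitochondrial and the heat shock class, all lower in injured muscle.

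The ribosomal class, which the label ties to the proteins that build ribosomes, had a median of 23.5% of UMIs in the B cells of uninjured mouse A, 20.5% in B, 21.9% in C and 24.6% in D. The 16 injured mice ranged from 12.4% to 22.2% with a median of 18.8%. All but 1 of the injured mice lay below the lowest uninjured mouse, the exception being 3.5 dpi mouse D. The difference in means was -4.90 percentage points (22.6% ± 1.83 against 17.7% ± 2.75, adjusted p = 0.0195, exact permutation test, 4 against 16 mice).

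By time point the ribosomal share averaged 19.6% ± 0.353 (n = 3) on day 1, 15.7% ± 2.88 (n = 3) on day 2 and 16.2% ± 4.23 (n = 4) on day 3.5. It averaged 18.6% ± 0.857 on day 5 and 19.1% ± 0.119 on day 7 (n = 3 each). The lowest were 2 dpi mouse A (12.4%), 3.5 dpi mouse A (12.6%) and 3.5 dpi mouse C (14.2%), which are 3 of the 4 mice with contested labels. Without those 4 mice the injured difference was -3.55 points and passed (adjusted p = 0.0148, exact permutation test), and the time course passed too (adjusted p = 0.0249, permutation test). With only the cells that all 3 methods call B the difference was -3.31 points and missed the threshold (adjusted p = 0.0662, exact permutation test). That setting also leaves out uninjured mouse D, which has 4 such cells, and 3.5 dpi mice A and B (3 and 2), under the minimum of 5. Over all B cells the difference was past the threshold only with uninjured mice A, C and D all present. Leaving out 1 of them gave -4.23 to -5.15 points and adjusted p of 0.0650 to 0.0743 (exact permutation tests).

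The mitochondrial class had medians of 13.9%, 26.4%, 18.5% and 9.05% in uninjured mice A to D, and the 16 injured mice ranged from 7.79% to 14.4% with a median of 11.7%. Uninjured mice A and D thus lay inside the injured range and mice B and C above it. The difference was -5.86 percentage points (17% ± 7.37 against 11.1% ± 1.74, adjusted p = 0.0372, exact permutation test). It rested on single mice, with -2.72 points and an adjusted p of 0.183 (exact permutation test) without uninjured mouse B, and it missed the threshold also without uninjured mouse A or C or without the 4 contested mice. The median mitochondrial share over all cells of a mouse was lower in injured muscle as well, as given above.

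The heat shock class, named for chaperones that help proteins fold under stress, had medians of 2.31%, 1.77%, 2.58% and 0.499% in uninjured mice A to D. The 16 injured mice ranged from 0.447% to 1.39% with a median of 0.704%. Uninjured mice A to C lay above every injured mouse and mouse D near the bottom. The difference was -1.01 percentage points (1.79% ± 0.923 against 0.779% ± 0.242, adjusted p = 0.0195, exact permutation test), and it missed the threshold without uninjured mouse A or C (adjusted p = 0.0650 and 0.0975, exact permutation tests). It missed it also with the 3 cells of 1 dpi mouse B, whose median was 4.04%, included (-0.817 points, adjusted p = 0.138, exact permutation test).

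**Figure D4:**
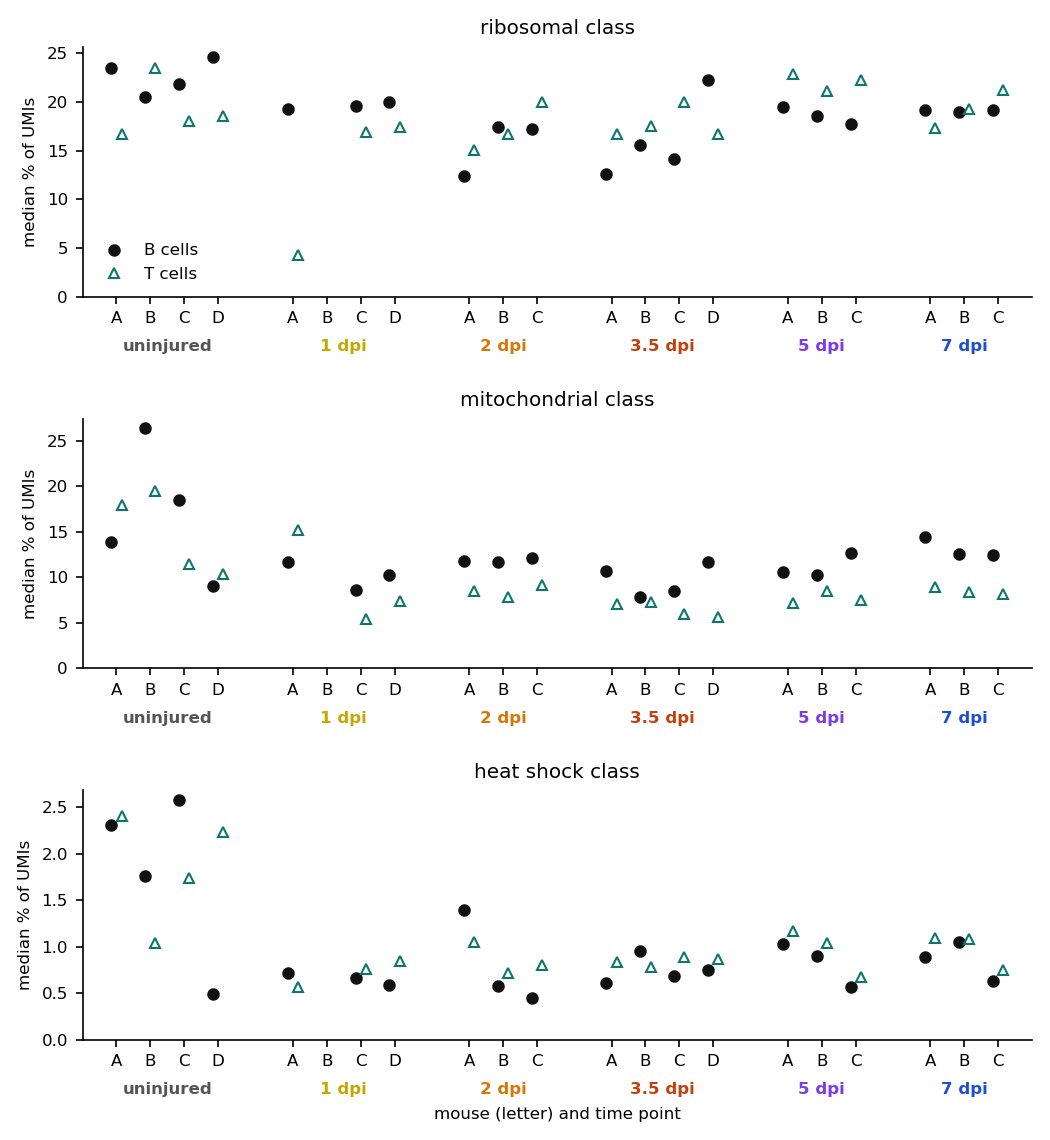
Median percent of UMIs from the ribosomal, mitochondrial and heat shock classes in B cells (filled circles) and T cells (open triangles) of the 20 mice with at least 5 B cells. Uninjured B cells sit at 20.5% to 24.6% for the ribosomal class, above 15 of 16 injured mice, and 3 of the 4 uninjured mice have the 3 highest heat shock shares of B cells.

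T cells of the same mice were also lower in the mitochondrial and heat shock classes after injury. Their mitochondrial share was 14.8% ± 4.59 in uninjured and 8.01% ± 2.21 in injured muscle (adjusted p = 0.0139, exact permutation test), and their heat shock share 1.86% ± 0.610 and 0.873% ± 0.172 (adjusted p = 0.00929, exact permutation test). The difference between the 2 cell types in these changes was 0.960 points (95% interval -2.61 to 4.51) and -0.0248 points (-0.667 to 0.553), neither past the threshold (adjusted p = 0.907 and 0.912, exact permutation tests).

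The ribosomal share of T cells was 19.2% ± 2.93 in uninjured and 17.8% ± 4.30 in injured muscle and did not pass (adjusted p = 0.670, exact permutation test). The change in B cells was larger by 3.54 percentage points, but the difference between the types missed the threshold (95% interval -9.51 to 2.17, adjusted p = 0.697, exact permutation test). A change particular to B cells was thus not shown. The T cells of 1 dpi mouse A had a median ribosomal share of 4.25%, the lowest of the mice compared, against 19.3% in its B cells. The injured contrast of B and T cells was not repeated without this mouse, so its part in the result was not tested. Over the 6 time points 0 of 9 differences between B and T cells (0%) passed the permutation test, and 0 had an unadjusted p under 0.05.

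The other 6 readouts did not pass the threshold between injured and uninjured mice. UMIs per B cell had medians between 2685 and 5880 in uninjured and between 1758 and 4562 in injured mice, a difference of -0.51 on the log2 scale (p = 0.0380, adjusted p = 0.0854, exact permutation test). Genes per cell differed by -0.06 on the log2 scale (adjusted p = 0.771, exact permutation test). Medians of the tf class ranged from 3.06% to 4.24% in uninjured and from 2.95% to 5.22% in injured mice, with 9 of the 16 injured mice above the highest uninjured one. The time point means ran from 3.57% ± 0.473 (3.5 dpi, n = 4) to 5.03% ± 0.189 (2 dpi, n = 3). The injured difference of 0.630 percentage points missed the threshold (adjusted p = 0.170, exact permutation test) and passed when means over cells replaced medians (0.908 points, adjusted p = 0.0347, exact permutation test).

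Long intergenic noncoding RNA had mouse medians of 1.67% to 4.13% in uninjured and 1.48% to 3.87% in injured muscle, antisense RNA 0.0533% to 0.0980% and 0.0574% to 0.145%, and protein-coding RNA 87.4% to 89.0% and 83.8% to 92.7%. The ranges overlapped for all 3 classes. Small nucleolar RNA, microRNA genes, small nuclear RNA and bidirectional promoter noncoding RNA were at 0 in most B cells, with any UMI in 26.6%, 13.5%, 20.4% and 42.0% of the 436 cells, and were not tested.

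The named RNA classes leave a remainder, and in 2 B cells that remainder was most of the transcriptome. The classes protein-coding, long intergenic, antisense, small nucleolar, bidirectional promoter, microRNA and small nuclear add up to less than 100% of a cell's UMIs. In GENCODE M21, the annotation at hand for the GRCm38 (mm10) genome, 268 immunoglobulin genes and 226 T cell receptor genes stand outside the protein-coding class, among them Ighm and Ighd on chromosome 12, Igkc on chromosome 6 and Iglc2 on chromosome 16, whereas Cd79a and Ms4a1 are protein-coding. Mitochondrial ribosomal RNA and pseudogenes stand outside it as well. The annotation release behind the deposited percentages is not given in the sources used here, and the tables do not break the remainder down, so which genes it held was not tested.

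The median remainder was 7.57% over the 436 B cells, 6th highest of the 23 types. By mouse it was 9.43%, 9.03%, 9.64% and 7.96% in uninjured mice A to D and between 4.71% and 9.89% in the 16 injured mice, so that the ranges overlapped. In 5 B cells it was over 30%, while the highest of the other 431 was 17.8%. In the whole series 122 cells had a remainder over 30%.

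In 3 of these 5 cells all label sets said B cell, and these were among the largest B cells. The cell of 1 dpi mouse D had 74.0% of its 22888 UMIs in the remainder, the highest of all 87822 cells. The cell of 5 dpi mouse A had 67.0% of 24976 UMIs, the second highest, and that of 7 dpi mouse B 46.5% of 17706 UMIs, the 32nd highest. They came from 3 different injured mice, and injured mice held 384 of all 436 B cells.

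By number of UMIs these cells were the second, the first and the 6th of the 436 B cells. The largest cell with such a remainder outside the B cells had 9668 UMIs, and the median of those cells was 3118.

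The other 2 cells, both of 1 dpi mouse A, had remainders of 42.4% and 38.4% with 2484 and 7976 UMIs and ribosomal shares of 2.66% and 5.72%. BBKNN and the label from before filtering called them inflammatory monocytes, and Scanorama called them Cx3cr1_hi M2 macrophages. Their B cell label thus rests on Harmony alone, unlike that of the 3 cells above. Of the cells other than B cells over 30%, 29 were T cells by Harmony, none of which BBKNN or Scanorama called a T cell, and 55 had no Harmony label.

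**Figure D5:**
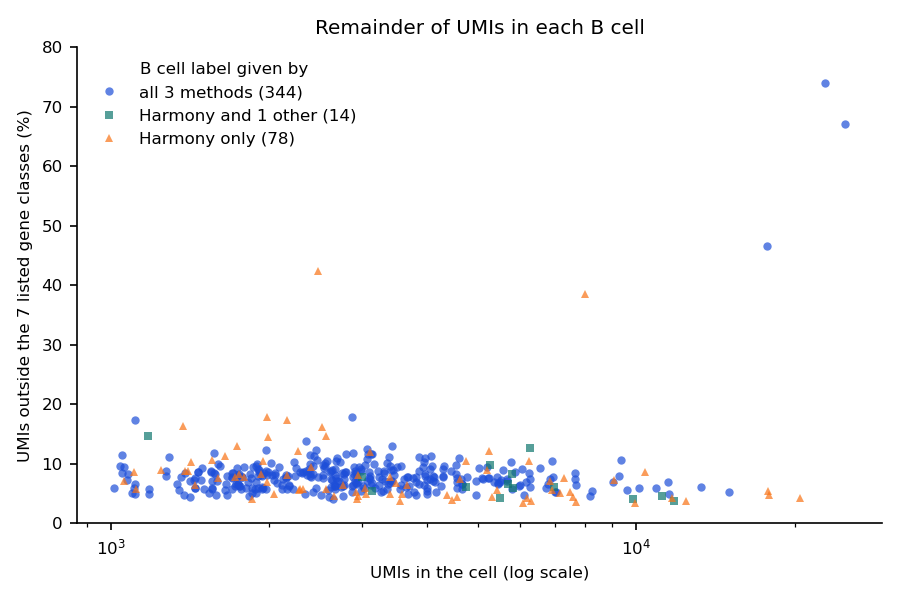
Percent of a cell's UMIs outside the 7 named RNA classes against its UMIs (log axis) for the 436 B cells, marked by how many methods gave the B cell label. Most points lie between 3.45% and 17.8%, and 3 cells that all methods call B stand apart at 46.5% to 74.0% with 17706 to 24976 UMIs.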

How the data were processed

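Reads had been mapped by the authors to mm10 using Cell Ranger 3.1.0, after which they subtracted ambient RNA with SoupX, filtered cells, removed doublets and labelled clusters after integration. The deposited UMI totals per cell are expected counts, not whole because of the subtraction. The deposited percent values are shares of a cell's UMIs by gene class, or per sample the reads in cells. The deposited fraction is the doublet score, and the number of barcodes is a count that the authors took from Cell Ranger.

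Cells were counted by mouse and label in Python 3.11.15 (pandas 2.3.3, numpy 2.4.6) and plotted with matplotlib 3.10.9. The permutation tests were written in numpy, and scipy 1.17.1 gave the exact intervals of shares. The mouse was the unit. Time courses were tested by permuting the F statistic (100000 resamples, arcsine square root of shares), single contrasts by two-sided exact permutation tests inverted for intervals, both with Benjamini-Hochberg adjustment at 0.05. Intervals of shares are Clopper-Pearson 95% intervals and cover counting error only. Samples needed 10 lymphocytes, or 5 B cells for medians. edgeR 4.0.16 (R 4.3.3) on numbers of cells was an alternative. The tests were checked on simulated data, with a pass required only for no difference and for large ones. This check does not give the power to find small changes of the B cell share.

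The members, lists and tests were chosen with earlier results of these data known. By the rule set for naming, only B, T and NK cells are given with values as groups, other types appear as labels of B cells, and no gene is given a value. The remainder outside the named classes, the 4 mice of contested labels and the contrast of B and T cells by injury were chosen after the values were seen.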

Additional observations from a re-analysis of the deposited data

Results flagged for a closer look

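In 3.5 dpi mouse D, B cells were 43.3% of lymphocytes (exact 95% interval 33.3% to 53.7%), far from the 5.32% to 7.08% of the other 3 mice of that time point. Its gap to the nearest mouse exceeded Dixon's 95% limit for 4 samples, which chance exceeds in about 1 of 20 groups. All 3 integration methods gave the B cell label to 39 of its 42 B cells.

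The label given before filtering, used above only to check the Harmony label, named B cells in 130 further cells of injured muscle that carry another Harmony label or none. There was 1 such cell in uninjured muscle. The totals were 76139 injured and 11683 uninjured cells, and the mean share over mice was 0.137% and 0.00732%. They numbered 3, 31, 57, 33 and 6 in the groups from 1 to 7 dpi in order. Harmony called 123 of them dendritic cells. Dendritic cells as a whole were also a smaller share of uninjured than of injured muscle at each time point, and their part in this contrast was not tested. As a share of all cells they were highest in 3.5 dpi mouse C (0.697%), 5 dpi mouse A (0.376%) and 5 dpi mouse C (0.264%).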

How the results depend on the processing

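The adjusted p of the B cell share over the time course stayed between 0.210 and 0.918 under all alternatives and between 0.454 and 0.948 without any 1 mouse. Single time points against uninjured were past no threshold with all cells as the denominator, and their small differences changed sign. Under BBKNN labels they were -0.0234 points at 2 dpi and -0.135 at 3.5 dpi, and under Scanorama -0.000450 and -0.124. With labels of all 3 methods they were -0.000450 and -0.13. At 3.5 dpi the difference was -0.00272 on the arcsine scale and -0.0309 with at least 750 genes. Under the stricter filter the differences were -0.199, -0.0725 and -0.00172 at 2, 3.5 and 5 dpi. Among non-myeloid cells the sign changed at 1 dpi (0.634), and the differences at 2 and 3.5 dpi were larger, 2.136 and 1.505 points. They were 0.512 and 0.164 at 5 and 7 dpi (0.999 for all injured mice). With TMM edgeR gave log2 changes of -0.75 at 5 dpi and -0.57 at 7 dpi. Among lymphocytes the differences were -27.4, -25.5, -32.4, -44.6 and -42.7 points. Leaving out 1 mouse gave -0.232 to -0.13 at 1 dpi, -0.174 to 0.260 at 2 dpi, -0.186 to 0.110 at 3.5 dpi, -0.124 to 0.120 at 5 dpi, -0.0158 to 0.0867 at 7 dpi and -0.0764 to 0.0261 for all injured mice, and without the contested mice the last was 0.0405.

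Among lymphocytes the time course passed under every alternative (p from 2e-05 to 0.0298) and without any 1 mouse (2e-05 to 0.00306). Single time points kept their direction but missed the threshold in these alternatives, with differences of -27.3, -25.4, -43.4 and -41.4 points at 1, 2, 5 and 7 dpi under Scanorama labels, -33.7, -28.7, -47.7 and -45.9 with at least 20 lymphocytes, -24.0, -30.1, -39.2 and -37.7 under the stricter filter, and at 2 dpi -26.2 with labels of all 3 methods, -26.5 with at least 750 genes and -20.7 without the contested mice. A minimum of 20 lymphocytes leaves out uninjured mouse D (13) and 1 dpi mouse B (10). Its tests at 1, 2, 5 and 7 dpi then set 3 against 3 mice. These cannot go below 0.1 in the exact permutation test, so the misses there were fixed in advance. The same holds at 2 dpi without the contested mice, where 4 against 2 mice cannot go below 0.0667. Under the stricter filter uninjured mouse B and 1 dpi mouse B fell below the minimum of 10 lymphocytes. The tests at 1, 2, 5 and 7 dpi then had at most 3 against 3 mice, so those misses were fixed in advance too. Leaving out 1 mouse gave -30.5 to -24.8 at 1 dpi, -32.4 to -20.7 at 2 dpi, -41.6 to -29.0 at 3.5 dpi, -47.7 to -42.0 at 5 dpi and -45.9 to -40.2 at 7 dpi.

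Of the readouts over the time course, 2 passed with means over cells (the tf and heat shock classes), 1 without the contested mice and 0 to 2 without any 1 mouse. Injured against uninjured, 0 to 4 passed without any 1 mouse. Under the stricter filter only uninjured mouse A kept at least 5 B cells (7), so no readout could pass and that setting decides nothing. Changes of sign among readouts that never passed were 0.0534, 0.281, 0.314, 0.513, 0.363 and 0.0252 points for long intergenic noncoding RNA (minimum of 3 or 10 B cells, means over cells, labels of all 3 methods, stricter filter, without the contested mice), 0.0477 and 0.0517 on the log2 scale for genes (minimum of 10, labels of all 3 methods) and -0.00377 points for antisense RNA (minimum of 10). Without any 1 mouse they ranged from -0.338 to 0.479 points for long intergenic RNA and from -0.214 to 0.0681 for genes. Uninjured mouse D had the highest long intergenic median of the 20 mice (4.13%). It is left out with a minimum of 10 B cells, with labels of all 3 methods and under the stricter filter. The cause of these changes was not tested.

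No pairing of the mice by replicate letter was detected. Deviations from the group means correlated with a median r of -0.0228 over 48 same-letter pairs and 0.0226 over 135 others. The paper states that several time points were collected on the same day, and these medians cannot show which mice were processed together. With the letter as a replicate block the adjusted p was 0.730 for the B cell share and the p 0.00477 for that among lymphocytes, and 0 readouts passed over the time course, so these 3 calls did not change. The block was not run for injured against uninjured.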
